A study of Mus musculus with 8 samples.

Results

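Semaphorins, ephrins, SLITs and netrins are guidance cues that steer migrating cells and growing axons, and together with their receptors they are described here in the outflow tract of the mouse heart. Members were taken by gene name, as the semaphorins of classes 3 to 7, plexins, neuropilins, ephrins, Eph receptors, SLITs, ROBOs and netrins. The names picked 64 of 33495 genes in the deposited table, and 59 of them, with at least 40 reads summed over the 8 libraries, are described: 32 ligands and 27 receptors. RNA was sequenced from outflow tracts of 4 samples labelled as carrying an anterior heart field conditional knockout of Mef2c and of 4 wild-type samples, all of CD-1 strain background. The anterior heart field is the progenitor population that builds the outflow tract and the right ventricle, so cells of other origin in a mutant sample keep the gene. The labels name neither the Cre line, the stage, the litters nor how many embryos went into a sample. Spread between samples, on which every p-value rests, may therefore be partly technical. Replicates 1 and 2 of each group were sequenced in lane 1 and replicates 3 and 4 in lane 2.

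Secreted class 3 semaphorins bind neuropilins, which pair with plexins as the signalling receptor, while the membrane-bound and other semaphorins mostly bind plexins directly. Ephrin-A ligands are held in the membrane by a lipid anchor and ephrin-B ligands span it, and both are read by Eph receptor tyrosine kinases on the neighbouring cell. SLITs are secreted ligands of ROBO receptors, and netrins are laminin-like proteins that signal through DCC, neogenin and UNC5 receptors. In the outflow tract, SEMA3C acting on neuropilin and on plexins A2 and D1 guides cardiac neural crest cells and is needed for septation, and ephrin-B2 and EphB4 are known markers of arterial and venous endothelium.

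Libraries held 7138732 to 11012246 reads in genes, so 3 reads equalled 0.278 to 0.413 CPM, the read count scaled to the TMM-adjusted library size. The described genes and the 5 below the minimum together took 0.233% to 0.286% of the reads in mutant libraries and 0.211% to 0.291% in wild-type libraries. All 7 outflow tract markers, among them Isl1, Rspo3 and Hand2, were detected, with a summed level of 289.2 to 483.7 CPM in mutant and 371.9 to 558.2 CPM in wild type. None was called by edgeR. Their median log2 fold change of mutant over wild type was -0.27, from Tbx3 at -1.03 (adjusted p = 0.0874, edgeR) to Hand2 at 0.22. All mutant values of Tbx3 lay below all wild-type values. Skeletal muscle precursor markers were at or near 0 (0 to 0.294 CPM summed in mutant, 0 to 0.138 in wild type), with Myod1, Myf5 and Pax7 at 0 reads. Of the neural crest and glia markers, Foxd3 had 0 reads and Sox10 lay between 0.599 and 1.89 CPM in mutant and between 0.275 and 1.78 CPM in wild type. Endothelial markers summed to 623.0 to 742.6 CPM in mutant and 519.4 to 567.0 CPM in wild type, without overlap. Singly, Tek and Erg alone of the 8 did not overlap, with Tek at 149.3 to 183.4 CPM in mutant and 96.6 to 111.3 CPM in wild type. By edgeR 4 of the 8 had an unadjusted p under 0.05, all above 0. Chamber myocardium markers were highest in the fourth mutant library (1097 CPM, others 342.7 to 446.6) and the second wild-type library (1797 CPM, others 916.6 to 1410). Of the 5 chamber markers Myl3 alone was called (-1.56, adjusted p = 0.0325, edgeR), with a median of -1.24 over the list. Of the 5 myocardium markers Myl7 alone was called (-0.97, adjusted p = 0.00309, edgeR), with a median of -0.28. Both lay lower in mutant, while Tnnt2 stood at 0.07 (adjusted p = 0.912, edgeR) and Myh6 at -0.03 (adjusted p = 0.973, edgeR). Actn2 stood at -0.28 without overlap (adjusted p = 0.348, edgeR) and Nkx2-5 at -0.47 (adjusted p = 0.49, edgeR). Gja5 had the lowest value of the chamber list, at -1.93 (adjusted p = 0.412, edgeR). Myocardium markers summed to 4605 to 5326 CPM in mutant and 4591 to 6885 CPM in wild type. Epicardial markers summed to 188.9 to 255.1 CPM in mutant and 104.9 to 195.0 CPM in wild type, with 4 of 5 at an unadjusted p under 0.05, all above 0, and Aldh1a2 called higher in mutant (1.25, adjusted p = 0.0361, edgeR). Over all tested genes, 11.4% had an unadjusted p under 0.05 (5.27% above 0, 6.09% below) and 1.5% were called by edgeR. The part of the marker lists in the guidance gene values was not tested. Epithelial markers summed to 157.5 CPM in the fourth wild-type library and to 49.5 to 61.9 CPM in the other wild-type libraries. Mef2c itself, counted over the whole gene and thus not only over the deleted part, did not pass the test (log2 fold change 0.32, adjusted p = 0.212, edgeR), and in the authors' deposited table the exon that moved furthest had a log2 ratio of -3.30.

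Sema3a and Epha6 fell in the mutant outflow tract by edgeR, which called no guidance gene higher. Of the 59 described genes 53 passed the filter on low counts and were tested, and 2 of the 53 passed edgeR's quasi-likelihood test after adjustment over all 14757 genes tested, both lower in mutant, against 1.5% of all genes (0.942% lower, 0.562% higher). At an unadjusted p under 0.05 there were 17 of 53 members (32.1%), 9 with a value above 0 and 8 below, against 11.4% of all tested genes (5.27% above, 6.09% below). The 4 mutant and 4 wild-type levels did not overlap in 13 of 53 members (24.5%), 8 with mutant above and 5 with mutant below, against 6.72% of all tested genes (3.44% above, 3.27% below). The median log2 fold change was 0.08 over the tested members and -0.006 over all tested genes. Epha6 passed the filter through the wild-type libraries alone, so its count among the tested members depends on its difference. In bulk tissue a smaller share of the cells that express a gene and less RNA per cell cannot be told apart.

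**Figure D1:**
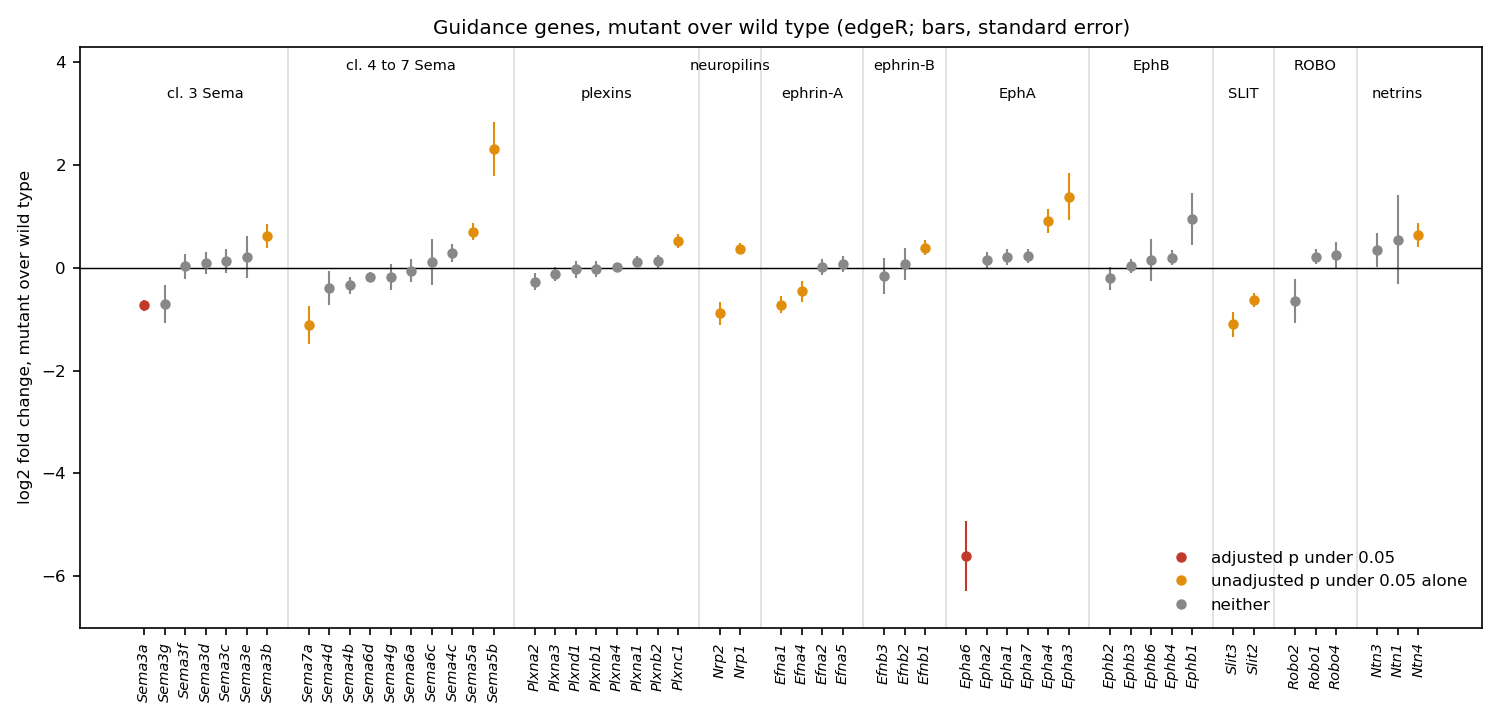
Log2 fold change of mutant over wild type for the 53 tested guidance genes, grouped by ligand and receptor class (points, edgeR estimate; bars, standard error; colour, side of the thresholds). Sema3a at -0.72 and Epha6 at -5.60 are the 2 members past the adjusted threshold, and both lie below 0.

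The number of called members depended on the tool and on the second wild-type library. DESeq2 called 10 of 53, 4 of them higher in mutant, against 2.98% of all genes, and limma-voom called 6, 3 of them higher, against 1.44%. Without the second wild-type library 9 members were called, 4 of them higher, against 1.52% of all genes, and without that library and the fourth mutant library, the pair highest in chamber markers, 10 were called, against 1.99% of all genes. Sema3a and Epha6 were among the called members in each of these. The further members of the DESeq2 list were Slit2, Slit3, Efna1, Nrp2, Epha4, Plxnc1, Sema5a and Sema5b, with adjusted p-values of 0.0575 to 0.116 by edgeR.

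RefSeq gives the following windows around the start of transcription for the 2 called genes and for Epha3 (build GRCm38.p6, 250 bases before the start in lower case and the first 50 transcribed bases in capitals). Epha3 lies 2.94 Mb from Epha6 on chromosome 16 and had a value of opposite sign. Sema3a lies on the plus strand at chr5:13396534-13396833, Epha6 on the minus strand at chr16:60605482-60605781 and Epha3 on the minus strand at chr16:63864126-63864425.
Sema3a: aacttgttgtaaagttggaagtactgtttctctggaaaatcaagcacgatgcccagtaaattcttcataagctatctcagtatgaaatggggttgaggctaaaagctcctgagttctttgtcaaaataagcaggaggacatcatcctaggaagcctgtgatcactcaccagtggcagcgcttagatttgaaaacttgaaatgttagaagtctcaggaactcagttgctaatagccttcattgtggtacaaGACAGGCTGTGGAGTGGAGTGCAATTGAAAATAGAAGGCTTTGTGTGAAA
Epha6: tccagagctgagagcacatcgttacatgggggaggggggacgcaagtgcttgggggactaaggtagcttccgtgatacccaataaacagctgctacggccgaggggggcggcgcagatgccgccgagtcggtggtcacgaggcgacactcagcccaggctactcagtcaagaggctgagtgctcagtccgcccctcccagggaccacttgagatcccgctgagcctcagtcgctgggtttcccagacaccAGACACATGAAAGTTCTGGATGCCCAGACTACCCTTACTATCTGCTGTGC
Epha3: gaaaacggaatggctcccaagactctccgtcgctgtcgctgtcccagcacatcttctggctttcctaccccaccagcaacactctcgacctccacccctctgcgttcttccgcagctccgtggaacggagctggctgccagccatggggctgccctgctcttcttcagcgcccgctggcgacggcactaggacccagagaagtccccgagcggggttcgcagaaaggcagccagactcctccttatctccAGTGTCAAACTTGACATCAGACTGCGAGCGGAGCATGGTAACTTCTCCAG
The Sema3a window held 2 CG dinucleotides at 41.3% G and C, the Epha6 window 15 at 60.3% and the Epha3 window 18 at 60.7%, beside medians of 18 and 64% over the 72 windows of 56 members and of 7 and 52.7% over all 32851 windows. A loose form of the MEF2 recognition motif was searched as CTA, any 4 bases and TAG, which reads the same on both strands. Its AT stretch was left unspecified, so a match need not be a MEF2 site. The pattern was found in 0 of these 3 windows. It stood in 1 of the 72 member windows (1.39%), that of Sema4d, and in 3.69% of all windows. The part of base composition in these shares was not tested.

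Among class 3 semaphorins, Sema3a changed and the other 6 tested members did not pass. Sema3a encodes a secreted repellent of axons and of endothelial and neural crest cells that binds neuropilin-1 (ENSMUSG00000028883, chromosome 5, 13396784 to 13602565, plus strand, mm9). It stood at 39.2, 43.0, 35.8 and 40.9 CPM in mutant libraries 1 to 4 and at 68.2, 74.7, 56.7 and 62.6 CPM in wild-type libraries 1 to 4. Every mutant library lay below every wild-type library. The mean was 39.7 CPM ± 3.01 in mutant and 65.5 CPM ± 7.68 in wild-type libraries (SD, n = 4 each), a log2 fold change of -0.72 ± 0.108 (SE, adjusted p = 0.00451, edgeR). The value was -0.80 in lane 1 and -0.65 in lane 2, and in lane 2 alone, with 2 libraries per group, it did not pass (adjusted p = 0.084, edgeR).

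Sema3c, the semaphorin that outflow tract myocardium is known to secrete, was the most abundant of the class per length and did not differ by the test. It stood at 211.4, 198.7, 184.6 and 118.5 CPM in mutant libraries and at 161.7, 103.9, 216.0 and 166.3 CPM in wild-type libraries. The lowest value of each group came from the fourth mutant and the second wild-type library, which were also lowest in outflow tract markers (289.2 and 371.9 CPM). The edgeR estimate was a log2 fold change of 0.14 ± 0.231 (SE, adjusted p = 0.88, edgeR), with 0.62 in lane 1 and -0.34 in lane 2, and it was -0.03 without the second wild-type library. The part of the libraries' makeup in this spread was not tested.

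Sema3b, a secreted semaphorin known from tumour suppression, had levels of 9.22, 11.2, 11.97 and 8.39 CPM in mutant and 5.66, 4.399, 8.94 and 7.51 CPM in wild type. The groups overlapped at a single pair of libraries, and the log2 fold change of 0.62 ± 0.228 (SE) did not pass (adjusted p = 0.294, edgeR). The other class 3 members ran from -0.70 (Sema3g) to 0.21 (Sema3e) on the log2 scale, and none had an unadjusted p under 0.05. Summed over the class, the level was 198.1 to 292.5 CPM in mutant and 209.8 to 306.9 CPM in wild type.

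**Figure D2:**
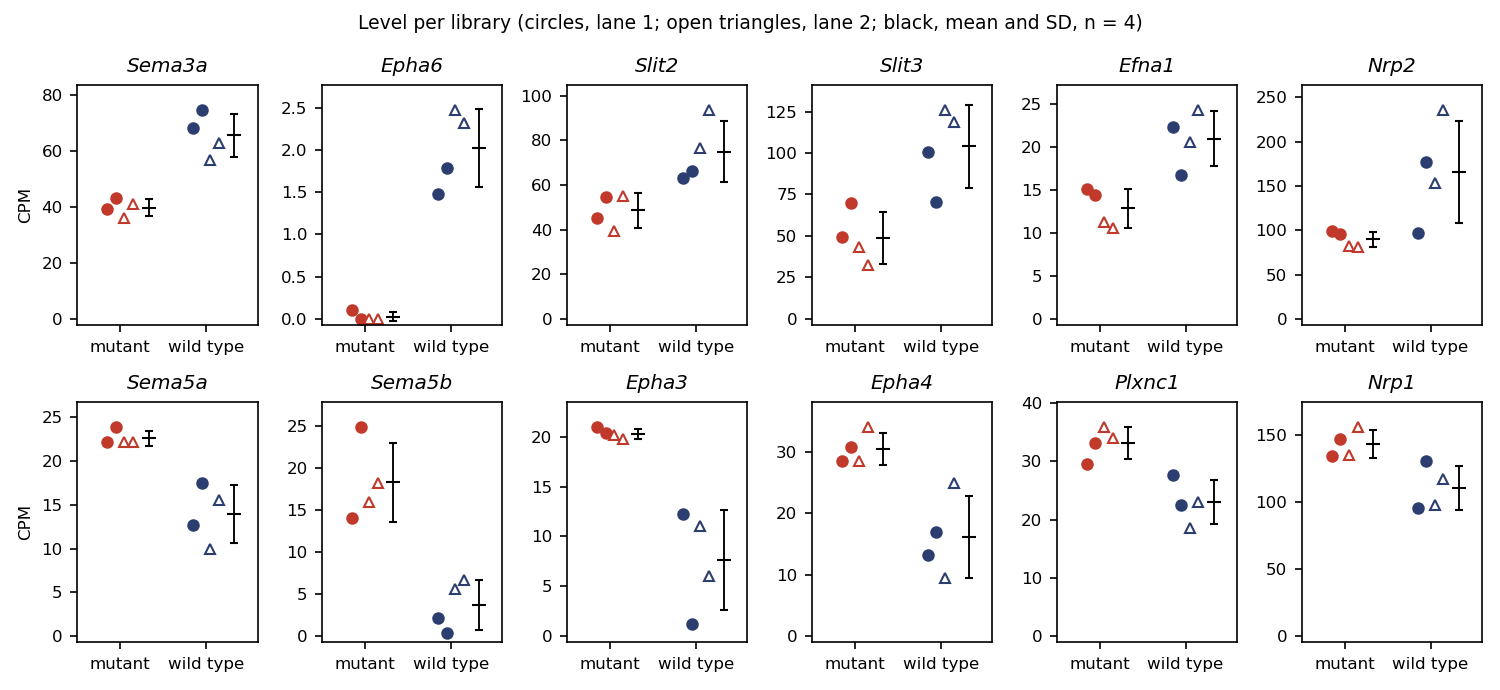
Level in CPM of 12 guidance genes in each library, mutant left of wild type (circles, lane 1; open triangles, lane 2; black mark and bars, mean and SD, n = 4). The mutant libraries sit at 35.8 to 43.0 CPM for Sema3a, below all wild-type libraries at 56.7 to 74.7, and the groups overlap in Nrp2 alone among the 12.

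Of the 10 tested semaphorins of classes 4 to 7, 0 passed by edgeR and 3 had an unadjusted p under 0.05. DESeq2 called Sema5a and Sema5b, which carry thrombospondin repeats and act in axon guidance. Sema5b stood at 14.1, 24.9, 15.999 and 18.2 CPM in mutant libraries and at 2.13, 0.412, 5.64 and 6.69 CPM in wild-type libraries. The groups did not overlap, and the second wild-type library was lowest. On the log2 scale the fold change was 2.32 ± 0.531 (SE, adjusted p = 0.0838, edgeR), with 3.79 in lane 1 and 1.46 in lane 2. Without the second wild-type library it was 1.96 (adjusted p = 0.0231, edgeR). With any other single library left out it did not pass (adjusted p = 0.0644 to 0.227, edgeR). A gene on the other strand within Sema5b held 76 reads over all libraries. Sema5b held 784, of which 668 were in mutant and 116 in wild-type libraries. The use of strand in counting is not given, so part of the Sema5b reads is uncertain, more so in wild type if those 76 lay there.

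Sema5a was nearly constant in mutant libraries, at 22.2, 23.9, 22.2 and 22.2 CPM, and lay at 12.7, 17.5, 9.91 and 15.6 CPM in wild-type libraries. All mutant values lay above all wild-type values. The log2 fold change of 0.70 ± 0.166 (SE) did not pass (adjusted p = 0.0615, edgeR), and without the second wild-type library it was 0.82 (adjusted p = 0.0251, edgeR). That library lay nearest the mutant ones, so leaving it out widens the difference by construction. Sema5a also passed with library size alone as scaling and with no filter on low counts. With any other single library left out it did not pass (adjusted p = 0.0734 to 0.18, edgeR).

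Sema7a, a lipid-anchored semaphorin that binds integrins and plexin C1, stood at 2.78, 4.58, 2.75 and 1.30 CPM in mutant libraries and at 6.77, 3.16, 8.94 and 5.47 CPM in wild-type libraries. The second wild-type library fell within the mutant range. The log2 fold change of -1.11 ± 0.376 (SE) did not pass (adjusted p = 0.237, edgeR). Sema6d, a transmembrane semaphorin with known roles in heart looping and trabeculation in chick embryos, was the most abundant of these classes per length, at 11.4 ± 0.991 CPM per kb of exon in mutant and 12.9 ± 1.24 in wild-type libraries (SD, n = 4). Its log2 fold change was -0.18 ± 0.0965 (SE, adjusted p = 0.54, edgeR).

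Sema6b and Sema4a had too few reads to be tested. Sema6b, a ligand of A-type plexins, had 14 reads in all mutant libraries and 42 in all wild-type ones, and its 4 mutant levels of 0.555, 0.763, 0.0982 and 0.2 CPM lay below the wild-type levels of 0.835, 1.37, 0.825 and 2.32 CPM. It is named for that lack of overlap, so no test is given. The remaining tested members of classes 4 to 7 ran from -0.39 (Sema4d) to 0.29 (Sema4c) on the log2 scale.

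None of the 8 tested plexins passed by edgeR, and 1 had an unadjusted p under 0.05. That was Plxnc1, the receptor of SEMA7A, at 29.5, 33.2, 35.9 and 34.0 CPM in mutant libraries and 27.7, 22.5, 18.6 and 23.1 CPM in wild-type libraries. The groups did not overlap. The log2 fold change of 0.52 ± 0.132 (SE) did not pass by edgeR (adjusted p = 0.0821) and passed by DESeq2 (adjusted p = 0.0216).

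Neither of the plexins that transmit SEMA3C signals, Plxnd1 and Plxna2, passed by edgeR, and the groups overlapped in both. Plxnd1, a plexin of endothelium and neural crest, stood at 90.3, 135.6, 91.7 and 135.2 CPM in mutant and 121.4, 102.3, 95.5 and 140.3 CPM in wild type. Its log2 fold change was -0.02 ± 0.166 (SE, adjusted p = 0.979, edgeR), and its sign changed to 0.02 with library size alone as scaling. Plxna2, a plexin of cardiac neural crest, stood at 71.2, 80.0, 66.2 and 51.6 CPM in mutant and 83.4, 60.4, 104.8 and 74.3 CPM in wild type. Its log2 fold change was -0.27 ± 0.169 (SE, adjusted p = 0.619, edgeR), at 0.06 in lane 1 and -0.61 in lane 2.

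Plxna4, which acts with neuropilin-1 as a receptor of SEMA3A, was the most abundant plexin per length. It had 17.8 ± 0.896 CPM per kb in mutant and 17.6 ± 1.61 in wild-type libraries (SD, n = 4), a log2 fold change of 0.01 ± 0.0907 (SE, adjusted p = 0.978, edgeR). The other tested plexins lay between -0.12 (Plxna3) and 0.13 (Plxnb2), and Plxnb3 had 74 reads and was not tested. Summed over plexins, the level was 628.1 to 707.4 CPM in mutant and 589.3 to 697.6 CPM in wild type.

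The neuropilins, Nrp1 and Nrp2, had values of opposite sign, and neither passed by edgeR. Nrp1 binds SEMA3A, SEMA3C and vascular endothelial growth factor and is needed in endothelium for outflow tract septation. It stood at 134.5, 147.1, 135.5 and 156.3 CPM in mutant libraries and at 96.1, 130.6, 98.1 and 117.5 CPM in wild-type libraries, without overlap. The log2 fold change was 0.38 ± 0.109 (SE, adjusted p = 0.143, edgeR), and without the second wild-type library it was 0.46 (adjusted p = 0.0422, edgeR). That library lay nearest the mutant ones, so leaving it out widens the difference by construction. With any other single library left out Nrp1 did not pass (adjusted p = 0.152 to 0.376, edgeR). The summed endothelial markers lay higher in mutant in the same libraries, as given above, and Tek and Erg alone were without overlap singly. Of the 8 markers 7 had values above 0, from Cdh5 at 0.10 to the receptor Tek at 0.74, the one marker called (adjusted p = 0.0013, edgeR). Emcn went the other way at -0.87 (adjusted p = 0.703, edgeR), at 16.4 CPM in mutant and 30.2 CPM in wild type, and the markers' part in the Nrp1 values was not tested.

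Nrp2, a receptor of SEMA3F and of class 3 semaphorins with SEMA3C among them, stood at 98.7, 95.5, 82.8 and 81.7 CPM in mutant libraries and at 97.4, 176.8, 153.0 and 236.2 CPM in wild-type libraries. The first wild-type library lay within the mutant range, and the fourth, which stood apart in epithelial markers, was highest. Mutant over wild type gave a log2 fold change of -0.89 ± 0.225 (SE, adjusted p = 0.116, edgeR). Without the first wild-type library it was -1.08 (adjusted p = 0.00614, edgeR), and without the fourth -0.66 (adjusted p = 0.121, edgeR). The first lay nearest the mutant libraries, so leaving it out widens the difference by construction. With any other single library left out the fold change did not pass (adjusted p = 0.121 to 0.289, edgeR). In lane 2 alone it was -1.25 (adjusted p = 0.0218, edgeR) and in lane 1 alone -0.49 (adjusted p = 0.43, edgeR). In wild type Nrp1 had 31.2 ± 4.65 CPM per kb and Nrp2 17.4 ± 6.05, and in mutant Nrp1 had 40.5 ± 2.92 and Nrp2 9.43 ± 0.912 (SD, n = 4).

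**Figure D3:**
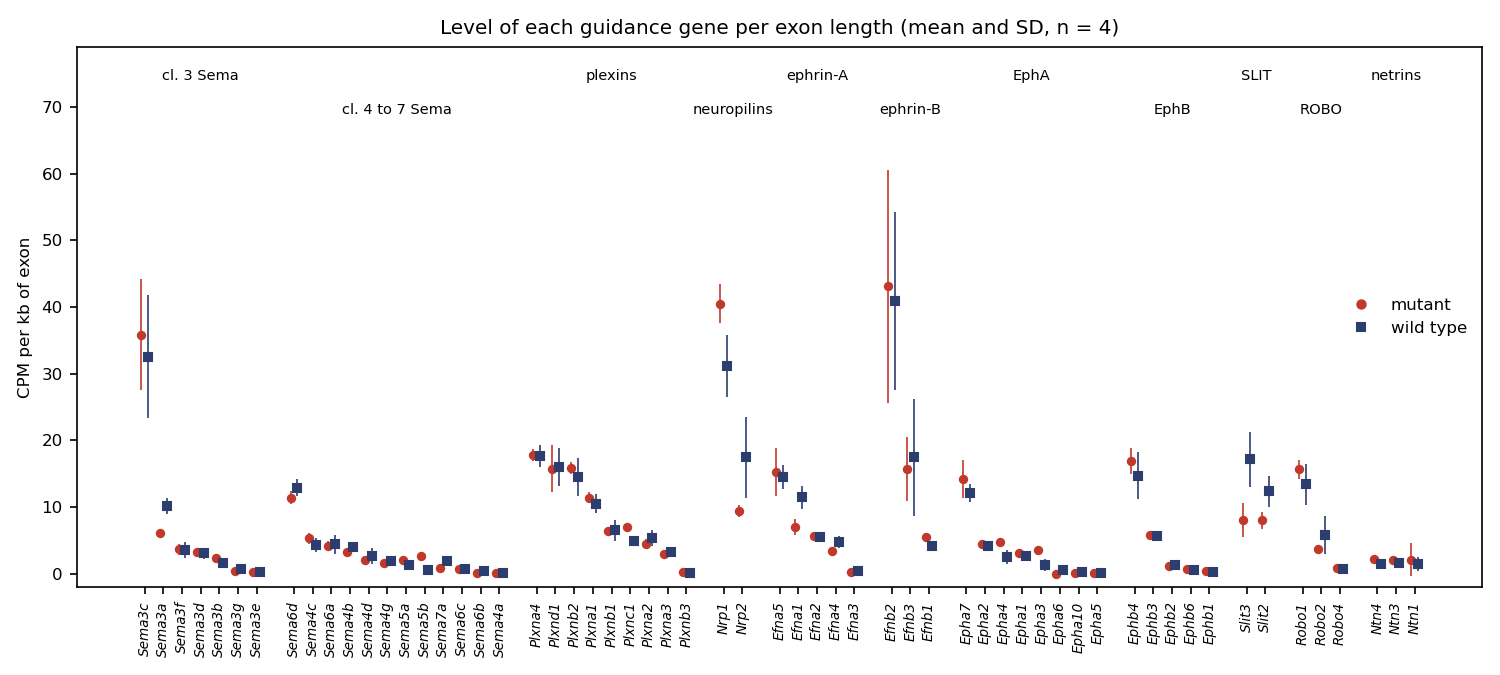
Level of the 59 described guidance genes in CPM per kb of exon, grouped by class (red circles, mutant; blue squares, wild type; bars, SD, n = 4). Efnb2, Nrp1 and Sema3c stand above 30 CPM per kb in both groups, and most other members lie under 20.

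Ephrin-A ligands held 2 tested members with an unadjusted p under 0.05 and 2 without, and 0 of 4 passed by edgeR. Efna1, a ligand of EphA2 known in endothelium and endocardial cushions, stood at 15.1, 14.4, 11.3 and 10.6 CPM in mutant libraries and 22.3, 16.8, 20.5 and 24.3 CPM in wild-type libraries. The groups did not overlap, and the log2 fold change of -0.71 ± 0.166 (SE) lay just outside the threshold (adjusted p = 0.0582, edgeR). It passed by DESeq2 (adjusted p = 0.00547) and without the second wild-type library (adjusted p = 0.0281, edgeR), and not without the fourth (adjusted p = 0.129, edgeR). Nor did it pass with any other single library left out (adjusted p = 0.0858 to 0.182, edgeR). The second wild-type library lay nearest the mutant ones, so leaving it out widens the difference by construction. Efna4 stood at 4.997, 5.85, 5.20 and 5.79 CPM in mutant and 7.60, 5.50, 7.84 and 9.02 CPM in wild type, with the second wild-type library inside the mutant range. Its log2 fold change was -0.46 ± 0.199 (SE, adjusted p = 0.411, edgeR). Efna5, a brain axon guidance ligand and the most abundant ephrin-A per length, had 15.3 ± 3.63 CPM per kb in mutant and 14.5 ± 1.78 in wild-type libraries (SD, n = 4).

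Of the 3 ephrin-B ligands 0 passed by edgeR, and Efnb1 alone had an unadjusted p under 0.05. Efnb1, an X-linked ligand of mesenchyme and neural crest, stood at 21.4, 17.9, 16.9 and 20.4 CPM in mutant and 16.7, 14.2, 14.7 and 12.4 CPM in wild type, without overlap. Its log2 fold change of 0.40 ± 0.143 (SE) did not pass (adjusted p = 0.288, edgeR). Efnb2, the arterial endothelial ligand, had the highest level per length of all described members, at 43.1 ± 17.5 CPM per kb in mutant and 40.9 ± 13.3 in wild-type libraries (SD, n = 4). Its libraries spread widely, at 182.7, 330.0, 166.8 and 146.6 CPM in mutant and 134.8, 165.9, 199.5 and 282.8 CPM in wild type. The second mutant and the fourth wild-type library were highest, and the log2 fold change of 0.08 was 0.77 in lane 1 and -0.63 in lane 2.

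EphA receptors held the largest fall among the described members, that of Epha6. Epha6 encodes a receptor tyrosine kinase best known in brain (ENSMUSG00000055540, chromosome 16, 59653309 to 60605073, minus strand, mm9). It had 1 read over the 4 mutant libraries, in the first, and 64 reads over the 4 wild-type libraries. The level was 0.111, 0, 0 and 0 CPM in mutant libraries and 1.48, 1.79, 2.48 and 2.32 CPM in wild-type libraries. Wild type stood 72.7-fold above mutant by summed counts, with an exact 95% counting interval of 12.6 to 2915. The fitted log2 fold change was -5.60 (adjusted p = 0.00129, edgeR), a size that depends on the prior count, and the call held in all 20 alternatives. At 2.02 CPM ± 0.463 (SD, n = 4) in wild type, Epha6 was among the least abundant members tested, and the authors' deposited table gave it a modified log2 fold change of -2.66.

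Epha3, a receptor of ephrin-A5 with known roles in endocardial cushion development, lies 2.94 Mb from Epha6 on chromosome 16 and did not pass. It stood at 21.0, 20.3, 20.1 and 19.8 CPM in mutant libraries and at 12.2, 1.24, 11.01 and 6.01 CPM in wild-type libraries. The mutant values were close together and above every wild-type value, and the second wild-type library was far below the rest. The edgeR estimate was a log2 fold change of 1.39 ± 0.461 (SE, adjusted p = 0.277, edgeR), and without the second wild-type library 1.04 ± 0.206 (SE, adjusted p = 0.0254, edgeR). With any other single library left out it did not pass (adjusted p = 0.223 to 0.503, edgeR).

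Epha4, a receptor that binds both ephrin classes, stood at 28.5, 30.8, 28.5 and 34.1 CPM in mutant libraries and 13.2, 16.9, 9.49 and 25.0 CPM in wild-type libraries. The groups did not overlap, and the fourth wild-type library came closest to the mutant ones. The log2 fold change of 0.92 ± 0.233 (SE) did not pass (adjusted p = 0.0904, edgeR), and without the fourth wild-type library it was 1.21 (adjusted p = 0.00738, edgeR). Leaving out the library nearest the other group widens the difference by construction. With any other single library left out Epha4 did not pass (adjusted p = 0.124 to 0.252, edgeR). Epha7, the most abundant EphA receptor per length, had 14.2 ± 2.87 CPM per kb in mutant and 12.2 ± 1.36 in wild-type libraries (SD, n = 4), and a log2 fold change of 0.23 ± 0.138 (SE, adjusted p = 0.597, edgeR). Epha10, described after its values were seen, had 4 reads over the mutant libraries and 39 over the wild-type ones, most of them in wild-type libraries 2 and 3 at 2.34 and 2.20 CPM, and was not tested. Epha5 had 47 reads in all and was not tested either.

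EphB receptors held 0 of 5 members at an unadjusted p under 0.05. Ephb4, the venous receptor of ephrin-B2 and the most abundant of the class per length, stood at 74.1, 90.9, 72.2 and 73.4 CPM in mutant and 52.9, 54.9, 78.6 and 84.3 CPM in wild type. The second mutant library was highest and the lane 1 wild-type libraries were lowest, with a log2 fold change of 0.61 in lane 1 and -0.17 in lane 2. The test of that difference had the smallest p of the 53 members (unadjusted p = 9.88e-04) and did not pass after adjustment (adjusted p = 0.0767, edgeR). Ephb1, Ephb2, Ephb3 and Ephb6 ran from -0.20 to 0.96 on the log2 scale.

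**Figure D4:**
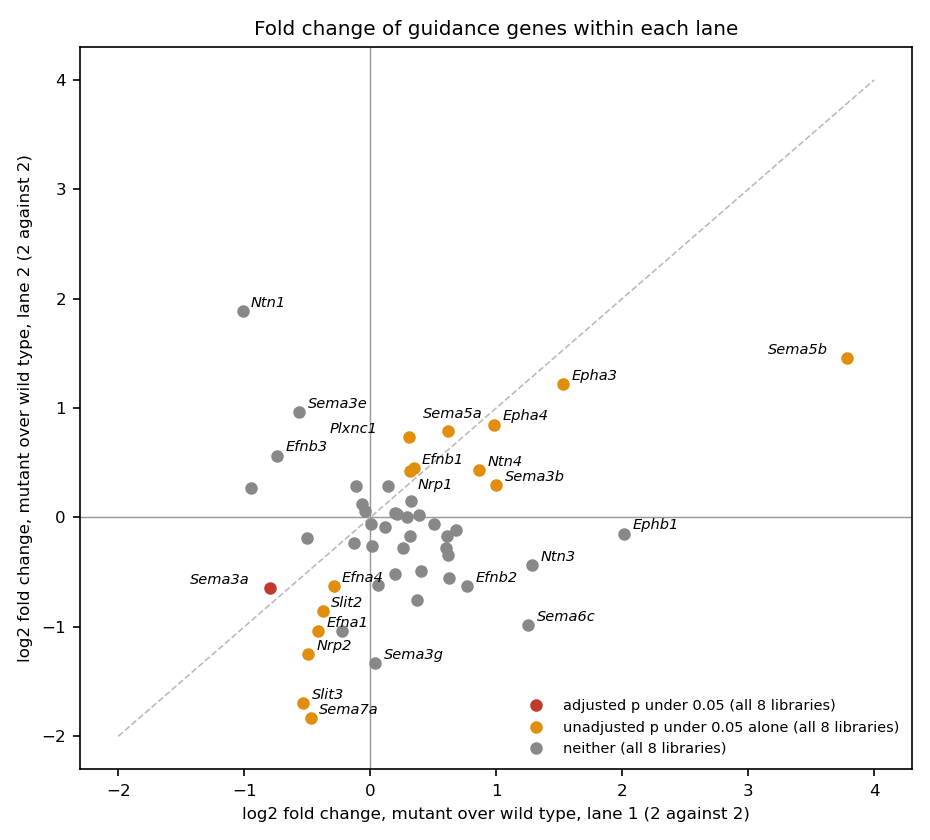
Log2 fold change of mutant over wild type within lane 1 (horizontal) and within lane 2 (vertical), each from 2 libraries per group, for 52 tested guidance genes with Epha6 left out for scale. Sema3a and the 15 other named members with an unadjusted p under 0.05 have the same sign in both lanes, which follows in part from that selection, and 27 members change sign.

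Within lanes, 27 of the 53 tested members had values of opposite sign. The test of group by lane gave 16 of 53 members an unadjusted p under 0.05, against 16.6% of all tested genes, and 0 members an adjusted p under 0.05 by edgeR. Each lane estimate rests on 2 libraries per group, and the fourth mutant library was in lane 2 while the second wild-type library was in lane 1.

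The SLIT ligands Slit2 and Slit3 both lay lower in mutant libraries without overlap, and neither passed by edgeR. Slit2, a secreted repellent of axons and of migrating cells, stood at 45.1, 54.8, 39.4 and 55.1 CPM in mutant libraries and 63.1, 66.3, 76.6 and 93.7 CPM in wild-type libraries. The highest wild-type value came from the fourth library. The log2 fold change was -0.62 ± 0.145 (SE, adjusted p = 0.0575, edgeR), at -0.38 in lane 1 and -0.86 in lane 2, and -0.50 without the fourth wild-type library (adjusted p = 0.11, edgeR).

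Slit3, a SLIT with known roles in diaphragm and heart development in mice, stood at 49.4, 69.7, 43.6 and 32.6 CPM in mutant libraries and 100.8, 70.3, 126.2 and 118.7 CPM in wild-type libraries. The second mutant and second wild-type libraries nearly met. This was a log2 fold change of -1.10 ± 0.243 (SE, adjusted p = 0.0694, edgeR), at -0.53 in lane 1 and -1.69 in lane 2. It passed without the second mutant library (-1.32, adjusted p = 0.0193, edgeR) and without the second wild-type library (-1.25, adjusted p = 0.0314, edgeR). Leaving out either of these widens the difference by construction, since they are the libraries that nearly met. With any other single library left out Slit3 did not pass (adjusted p = 0.0914 to 0.193, edgeR). In the authors' deposited table Slit3 held rank 75 in an exon test, the highest of any member, with a log2 ratio of -1.80 at the exon that moved furthest. That table gave Slit3 a modified log2 fold change of 0.11, opposite in sign to the edgeR value. The microRNA hairpins mir-218-1 and mir-218-2 lie within Slit2 and Slit3 on the same strand, with 13 and 4 reads of their own. Summed over both SLITs the level was 82.9 to 124.4 CPM in mutant and 136.5 to 212.5 CPM in wild type. Slit1, with 17 reads, fell below the minimum.

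ROBO receptors had 0 of 3 tested members at an unadjusted p under 0.05. Robo1, the most abundant per length, had 15.6 ± 1.38 CPM per kb in mutant and 13.4 ± 3.05 in wild-type libraries (SD, n = 4), and a log2 fold change of 0.22 ± 0.148 (SE, adjusted p = 0.641, edgeR). Robo2, described after its values were seen, stood at 62.3, 69.3, 63.1 and 48.9 CPM in mutant and 121.9, 29.0, 134.1 and 94.96 CPM in wild type. The second wild-type library was lowest of all 8 and the other 3 were the highest. Mutant over wild type gave a log2 fold change of -0.65 ± 0.425 (SE, adjusted p = 0.653, edgeR) with all libraries, and -0.95 ± 0.134 (SE, adjusted p = 0.00396, edgeR) without the second wild-type library. That library lay below the mutant ones, against the direction of the other wild-type libraries, so leaving it out widens the difference by construction. With any other single library left out Robo2 did not pass (adjusted p = 0.654 to 0.859, edgeR). Robo4, the endothelial ROBO, also described after its values were seen, stood at 3.33 ± 0.889 CPM in mutant and 2.80 ± 0.0959 in wild-type libraries (SD, n = 4).

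Netrins were low, and 0 of 3 tested members passed by edgeR. Ntn4, a basement membrane netrin of vessels, had the highest mean per length over all 8 libraries by a small margin but not in wild type, and stood at 6.77, 9.66, 10.7 and 6.59 CPM in mutant and 4.91, 3.99, 6.47 and 6.28 CPM in wild type. The groups did not overlap by a narrow margin, and the log2 fold change of 0.64 ± 0.233 (SE) did not pass (adjusted p = 0.29, edgeR). Ntn1, the classical attractant of commissural axons, described after its values were seen, stood at 8.55, 3.69, 3.83 and 36.1 CPM in mutant and 7.23, 18.1, 4.27 and 6.42 CPM in wild type. Its highest values came from the fourth mutant and the second wild-type library, the pair highest in chamber markers. Efnb3, also described after its values were seen, was highest in the same pair, at 72.3 CPM against 38.9 to 45.3 in the other mutant libraries and at 95.8 CPM against 33.2 to 51.7 in the other wild-type libraries. The part of chamber tissue in these values was not tested.

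**Figure D5:**
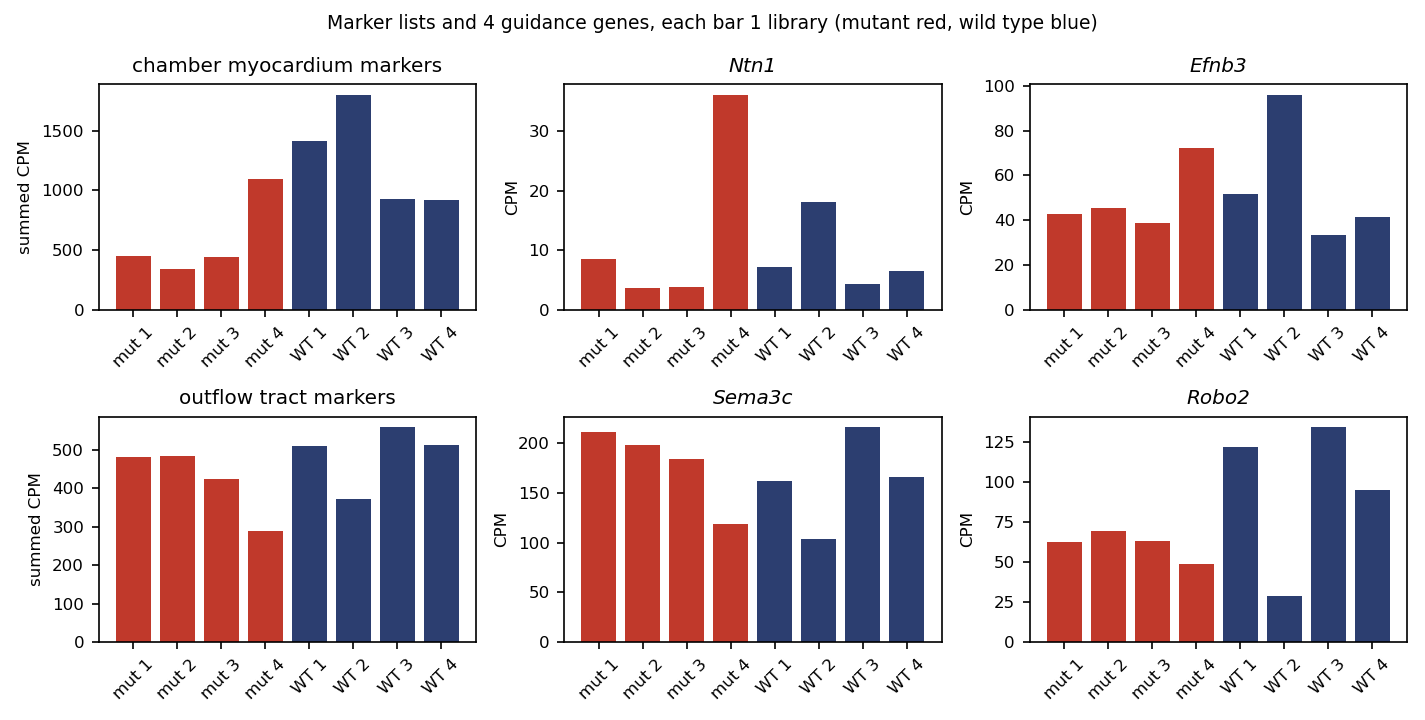
Summed CPM of chamber myocardium and outflow tract markers and CPM of Ntn1, Efnb3, Sema3c and Robo2, each bar 1 library (red, mutant; blue, wild type). The fourth mutant and second wild-type libraries are highest in their group for chamber markers, Ntn1 and Efnb3 and lowest for outflow tract markers, Sema3c and Robo2.

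Partners and effectors of these pathways that the names did not take were listed by their known roles, and 1 of 51 tested changed by edgeR, against 1.5% of all genes. That was Rnd2, a small GTPase that binds plexins, which rose to 111.5, 98.6, 110.7 and 115.5 CPM in mutant libraries, against 50.6, 65.0, 41.7 and 37.3 CPM in wild-type libraries. All mutant values lay above all wild-type values, and the log2 value was 1.16 (adjusted p = 0.00188, edgeR). Of the 51, 6 had values above 0 and 3 below at an unadjusted p under 0.05 (17.6%, against 11.4% of all tested genes), and the median was 0.07. Mical2, an actin-oxidising enzyme of a family that acts downstream of plexins, had 0.43 (adjusted p = 0.0844, edgeR), and Neo1, the netrin and RGM receptor neogenin, had 0.30 (adjusted p = 0.205, edgeR). Rgmb, a ligand of neogenin, had 0.43 (adjusted p = 0.207, edgeR), and Tiam1, a Rac exchange factor in ephrin signalling, had 0.44 (adjusted p = 0.357, edgeR). Of the netrin receptors, Unc5b stood at 316.1 to 425.0 CPM in mutant and 261.4 to 427.7 CPM in wild type, while Dcc had 0.3 to 0.555 CPM in mutant and 0 to 1.37 CPM in wild type.

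In the authors' deposited table, made with the USeq package per the file headers, 13 of the 59 members passed a false discovery rate of 0.05, against 3.47% of the 16538 genes in that table with as many reads as the members had to have. Of these, 8 had edgeR values below 0, 4 above 0 and 1, Epha10, was not tested by edgeR. The sign of the authors' modified log2 fold change was opposite to edgeR's for 2 of them, Slit3 and Nrp2.

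The members with the lowest counts need care. Just inside the minimum were Epha10 with 43 reads, Efna3 with 46, Epha5 with 47 and Sema6b with 56, and just outside were Sema4f with 26, Slit1 with 17 and Epha8 with 3. Robo3 and Ntn5 had 1 read each.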

How the data were processed

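Outflow tract RNA of 4 mutant and 4 wild-type samples was sequenced. Raw counts per gene were deposited by the authors, after alignment with TopHat2 2.0.4 to mm9 per the submitters' processing notes. Neither a counting tool, a strand setting nor an annotation release is stated there. The authors also deposited, per the file headers, a modified log2 fold change, a log2 ratio of the most changed exon, and scores holding a false discovery rate on a minus 10 log10 scale (13.01 is 0.05) and an exon test of unstated scale, which was used for ranks. Summed exon length served for levels per kb. The 8 columns of the authors' normalized values per library were not used.

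Counts were tested with edgeR 4.0.16 (R 4.3.3, limma 3.58.1): filterByExpr, TMM scaling, robust quasi-likelihood F test (two-sided), group alone in the design, Benjamini-Hochberg adjustment over 14757 genes, threshold 0.05. CPM used TMM-scaled library sizes, and the standard error was the log2 fold change divided by the square root of F. The procedure was tested on simulated data. Alternatives covered scaling, filter, DESeq2 1.42.0, limma-voom, dispersion, a replicate block, lane and left-out libraries, and the group by lane test was added after the data were seen. Replicates of a group differed beyond sampling noise (chi-square per degree of freedom 5.77 to 20.7). Intervals and floors cover counting error only. The members, lists and named genes were chosen with earlier results of these data known. Named were members past either threshold, without overlap between groups or highest of their class per length, and Sema3c, Plxna2, Plxnd1, Nrp1 and Nrp2, 28 in all. Other members are given by class range or by low counts, and those described singly after their values were seen are marked so. Gene coordinates follow the deposited table (mm9) and promoter windows RefSeq (GRCm38.p6). Python 3.11.15, pandas 2.3.3, scipy 1.17.1 and matplotlib 3.10.9 were used for tables and figures.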

Additional observations from a re-analysis of the deposited data

Results flagged for a closer look

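For the 27 named and tested members, the log2 CPM of each group were examined for a single library that stood apart. Of 54 groups 4 held such a library (7.41%), and chance gives about 5%. Epha6 stood at -1.55 in mutant library 1, which held its single mutant read, and at -2.12 in the other mutant libraries, which held 0 reads. In mutant library 2, Ephb4 stood at 6.51, against 6.18 to 6.22 in the other mutant libraries. Robo1 stood at 7.11 in that library, against 6.86 to 6.90 in the others. Sema5a stood at 4.59 there, against 4.49 in the others, a small difference in a group whose libraries nearly coincide.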

How the results depend on the processing

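The fall of Epha6 kept its direction and its call in all 20 alternatives, and that of Sema3a in 19, the exception being lane 2 alone (-0.65, adjusted p = 0.084). Of the 27 named and tested members 19 kept their sign in every alternative, and 11 that did not pass in the report passed in at least 1. Over all genes, 222 calls became 440 with DESeq2, 836 in lane 1 alone, 119 in lane 2 alone and 95 without mutant library 1 and wild-type library 4. Leaving out each library in turn gave 110 to 231 calls over all genes and 2 to 9 among the members. The member calls, 2 of 53 beside 222 over all genes, became 4 without robust dispersion (215 over all genes) and 6 with limma-voom (212). With no filter on low counts they were 5 of 64 (274 over all genes). Lane 2 alone gave 6 of 54 (119 over all genes) and lane 1 alone 9 of 53 (836). They were 10 with DESeq2 (440 over all genes) and 10 without the 2 libraries highest in chamber markers (296). With the replicate block 76 genes were called in all, with Epha6 and Sema3a the 2 members among them, and the cause of the lower count was not tested. Same-numbered libraries did not deviate together (correlations -0.287 to 0.222), so the numbers were not taken as pairs. Signs changed in lane 1 alone for Plxna2 (0.0639), Plxna4 (-0.0424) and Plxnd1 (0.00755). In lane 2 alone they changed for Efna5 (-0.17), Efnb2 (-0.63), Ephb4 (-0.17), Robo1 (-0.0562) and Sema3c (-0.34). Plxnd1 was at 0.0213 with library size alone, and without mutant library 1 and wild-type library 4 Plxna4 was at -0.0822 and Plxnd1 at 0.18. With 1 library left out at a time, signs also changed for Efna5 (-0.0957 to 0.167), Efnb2 (-0.248 to 0.308), Plxna4 (-0.0481 to 0.0513), Plxnd1 (-0.124 to 0.0874) and Sema3c (-0.0292 to 0.306). None of these members had passed the test. The filter on low counts left 6 described members without a fold change, and for Epha6, with 1 mutant read, depth limits how well the size of the fall is known.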
